A study of Saccharomyces cerevisiae with 4 samples.

Results

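The transcripts described here are those of 10 genes by which budding yeast senses glucose, represses other genes in its presence and phosphorylates hexoses. They were taken by locus name from a count table of 7127 features, and all 10 were present and passed the filter on low counts. By role they are the sensor genes SNF3 and RGT2, the corepressor genes MTH1 and STD1, the repressor genes RGT1, MIG1 and MIG2, and the kinase genes HXK1, HXK2 and GLK1. RNA came from BY4742, a haploid α-type laboratory strain with the alleles his3Δ1, leu2Δ0, lys2Δ0 and ura3Δ0, which all libraries share. Cultures in exponential growth in YPD, a rich medium with glucose, were given 5 mM TUDCA (tauroursodeoxycholic acid, a bile acid joined to taurine) for 2 h, or were left without it (Ctrl). Each group had 2 libraries of poly(A)-selected RNA, and no label says whether replicates came from separate cultures. The p-values below therefore rest on a spread between samples that may be technical.

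Snf3 and Rgt2 resemble hexose transporters but act as receptors at the plasma membrane, Snf3 with high and Rgt2 with low affinity for glucose. Their signal leads to the degradation of Mth1 and Std1, which the DNA-binding protein Rgt1 needs to keep hexose transporter genes off. Mig1 and Mig2 are zinc finger proteins that repress genes for other carbon sources while glucose is plentiful, and the kinase Snf1 opposes Mig1 when glucose runs low. Hexokinases and glucokinase then trap the sugar in the cell as hexose phosphate.

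Libraries held 74080860 to 97133389 counts assigned to features. LEU2 and URA3 had 0 counts in every library, which allows up to 3 counts (0.0405 counts in each 1000000 of the smallest library, counting error only), and LYS2 had at most 2 counts. HIS3, whose his3Δ1 allele is a partial deletion, kept 11172 to 17246 counts. The α-cell gene STE3 was at 167 to 214 counts in each 1000000 and the a-cell gene STE2 at 8.91 to 9.89. Ctrl replicate 2 stood apart, with 13.3% of its counts in cytosolic ribosomal protein genes against 9.76% to 10.4% in the other libraries. Results are therefore also given without it where leaving it out turned a direction or moved a value by over 1.5 times.

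None of the 10 genes passed edgeR's quasi-likelihood test at an adjusted p of 0.05, and the highest was MTH1, 1.52-fold higher in TUDCA. Over all 6420 genes tested, 0.0312% were called higher. An unadjusted p under 0.05 with a higher level in TUDCA was found for 5 of the 10 (MTH1, HXK2, MIG2, SNF3 and HXK1), against a background of 3.75% of all genes. limma, run with voom or on the deposited normalized values, also called 0 of the 10, and DESeq2 called 1 (MTH1), against 0.506% of the genes it tested. For 6 of the 10, the 5 above and MIG1, both TUDCA libraries lay above both Ctrl libraries, which was so for 23.7% of all genes. All 10 fitted log2 fold changes were above 0, against 49.0% of all genes, but that of STD1 was -0.032 under upper-quartile scaling and that of RGT2 was -0.0029 without Ctrl replicate 2. The median of the 10 was 0.19, and that of all genes was -0.0037. The 10 genes were chosen with earlier results of these data known, so the shares of all genes beside them are no test of the set. Levels are in CPM, counts in each 1000000 scaled by TMM factors, and so are shares of the mRNA pool of a culture. Fewer cells with a transcript and less of it per cell cannot be told apart.

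**Figure D1:**
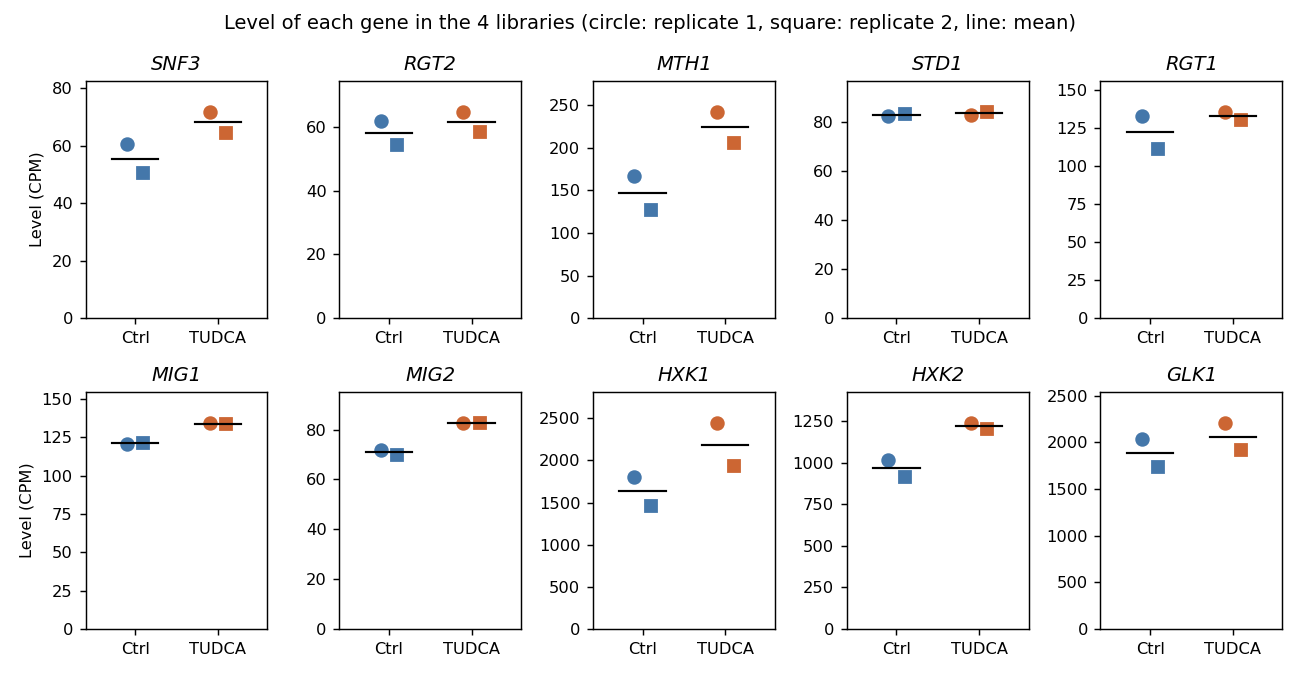
Level of each of the 10 genes (y axis, CPM, from 0) in Ctrl (blue) and TUDCA (orange), with a circle for replicate 1, a square for replicate 2 and a line for the group mean. MTH1 runs from 127 to 167 CPM in Ctrl and from 206 to 242 CPM in TUDCA, while STD1 stays between 82.5 and 84.1 CPM in all libraries.

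The question asked of each gene was whether its transcript differed after exposure to the bile acid. SNF3 (YDL194W, chromosome IV, 111580 to 114234, build R64) was at 60.4 and 50.5 CPM in Ctrl replicates 1 and 2 and at 71.7 and 64.4 CPM in TUDCA replicates 1 and 2. Both TUDCA libraries were above both Ctrl libraries, with the lower TUDCA value close to the higher Ctrl value. The means were 55.4 ± 7.04 and 68.1 ± 5.13 CPM (SD, n = 2), a log2 fold change of 0.30 (SE 0.11, 95% interval 0.052 to 0.54, edgeR adjusted p = 0.544). Without Ctrl replicate 2 the log2 fold change was 0.17.

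RGT2 (YDL138W, chromosome IV, 213351 to 215642), the gene for the low-affinity sensor, had 61.7 and 54.2 CPM in Ctrl and 64.6 and 58.3 CPM in TUDCA. The groups overlapped, since TUDCA replicate 2 lay below Ctrl replicate 1. Its log2 fold change was 0.086 (95% interval -0.13 to 0.30, edgeR adjusted p = 0.694). The ratio of SNF3 to RGT2 counts, which does not depend on the scaling between libraries, was 0.980 and 0.931 in Ctrl and 1.11 and 1.10 in TUDCA. This ratio was higher in both TUDCA libraries, by 1.16-fold, with an exact two-sided permutation p of 0.33, the smallest that 2 libraries against 2 can give.

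The 2 corepressor genes are paralogs. MTH1 (YDR277C, chromosome IV, 1014401 to 1015702) was at 167 and 127 CPM in Ctrl and at 242 and 206 CPM in TUDCA. Both TUDCA libraries were well above both Ctrl libraries, and replicate 2 was the lower one in each group. The means were 147 ± 27.9 and 224 ± 25.4 CPM (SD, n = 2), a log2 fold change of 0.61 (SE 0.14, 95% interval 0.28 to 0.93). Its unadjusted p was 0.0027, the 44th smallest among 6420 genes, and its edgeR adjusted p was 0.387. DESeq2's adjusted p was 0.0054.

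The call on MTH1 depended on the libraries used. Without Ctrl replicate 1 the log2 fold change was 0.83 and passed edgeR's test (adjusted p = 9.5e-05), in a comparison that called 17.6% of all genes higher. Without TUDCA replicate 2 it was 0.72 and passed too (edgeR adjusted p = 0.0221, against 0.186% of all genes called higher). Without Ctrl replicate 2 it was 0.43 and did not pass (edgeR adjusted p = 0.0809, against 0.372% called higher). Without TUDCA replicate 1 it was 0.48 and did not pass (edgeR adjusted p = 0.830).

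STD1 (YOR047C, chromosome XV, 416347 to 417681) was at 82.5 and 83.2 CPM in Ctrl and at 83.0 and 84.1 CPM in TUDCA. All 4 values were nearly equal, and the groups overlapped. Its log2 fold change was 0.012 (95% interval -0.16 to 0.18, edgeR adjusted p = 0.954) and 0.021 without Ctrl replicate 2. MTH1 counts were 2.03 and 1.53 times those of STD1 in Ctrl and 2.91 and 2.45 times in TUDCA. The ratio was 1.52-fold higher in TUDCA and its groups did not overlap (exact permutation p = 0.33, the smallest possible). On the log2 scale the difference was 0.60, and it was 0.40 without Ctrl replicate 2.

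Sequence upstream of the corepressor genes is shown because MTH1 had the largest fold change of the 10 and STD1 the smallest, and because both genes are known to be under glucose control. The 600 bases before the start codon were searched on both strands for the Rgt1 motif CGGANNA, for the Mig1 motif as GCGGGG, as GTGGGG, as CCGGGG or as CTGGGG, and for the stress response element AGGGG, to which the stress regulators Msn2 and Msn4 bind. Of 5986 protein-coding genes with such a window, 48.0% held the Rgt1 letters, 27.9% the Mig1 letters and 39.7% the stress element, and none of the 39 matches in the 10 genes overlapped another. Upstream of MTH1 lay 2 Rgt1 matches (15.3% of genes held 2 or more), 2 Mig1 matches (5.25% held 2 or more) and 1 stress element. Upstream of STD1 lay 2 Rgt1 matches, 1 stress element and no Mig1 letters. A match describes letters, not binding. The stretches are chrIV:1016113-1016262 for MTH1 and chrXV:417892-417961 for STD1 (RefSeq genome, build R64, minus strand for both, written 5′ to 3′ toward the gene), with Rgt1 and Mig1 matches in capitals.
MTH1: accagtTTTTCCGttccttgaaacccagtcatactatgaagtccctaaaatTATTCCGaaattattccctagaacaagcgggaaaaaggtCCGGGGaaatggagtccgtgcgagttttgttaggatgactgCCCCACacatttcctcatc
STD1: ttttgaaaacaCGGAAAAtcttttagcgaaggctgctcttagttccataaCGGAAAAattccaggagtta

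Among the repressor genes, RGT1 (YKL038W, chromosome XI, 365605 to 369117) had 133 and 111 CPM in Ctrl and 136 and 130 CPM in TUDCA. The 2 TUDCA values lay on either side of Ctrl replicate 1, and Ctrl replicate 2 was the low library. The log2 fold change was 0.12 (95% interval -0.11 to 0.36, edgeR adjusted p = 0.623), and it was 0.0016 without Ctrl replicate 2.

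MIG1 (YGL035C, chromosome VII, 431548 to 433062) encodes the main glucose repressor. Its level was 121 CPM in both Ctrl libraries and 134 and 133 CPM in the TUDCA libraries. Replicates were closer to each other than the groups were, but the log2 fold change of 0.15 (SE 0.075, 95% interval -0.028 to 0.32) did not pass (edgeR adjusted p = 0.545). The 600 bases upstream of MIG1 held 4 matches to the Mig1 letters, and 0.969% of genes held 3 or more.

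MIG2 (YGL209W, chromosome VII, 95858 to 97006), whose product shares targets with Mig1, was at 72.0 and 69.7 CPM in Ctrl and at 82.6 and 82.8 CPM in TUDCA. Both TUDCA libraries were higher, and the 2 nearly coincided. The log2 fold change was 0.22 (SE 0.073, 95% interval 0.053 to 0.39, edgeR adjusted p = 0.544) and 0.20 without Ctrl replicate 2. The ratio of MIG2 to MIG1 counts was 0.596 and 0.575 in Ctrl and 0.614 and 0.621 in TUDCA, a 1.05-fold difference with groups that did not overlap (exact permutation p = 0.33, the smallest possible).

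MIG2 held more Rgt1 matches than any other of the 10 genes, 5 in 600 bases, and is shown for that reason; 3.73% of all genes held 3 or more. It also held 1 Mig1 match and 2 stress elements. The stretch with all Rgt1 and Mig1 matches (capitals) is chrVII:95488-95657 on the plus strand.
MIG2: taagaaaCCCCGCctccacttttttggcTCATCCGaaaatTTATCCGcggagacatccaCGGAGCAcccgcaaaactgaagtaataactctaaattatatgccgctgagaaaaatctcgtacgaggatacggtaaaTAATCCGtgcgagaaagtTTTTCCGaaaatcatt

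Of the enzymes, HXK1 (YFR053C, chromosome VI, 253592 to 255049), a hexokinase gene that glucose represses, was at 1807 and 1463 CPM in Ctrl and at 2448 and 1929 CPM in TUDCA. Both TUDCA libraries were higher, but TUDCA replicate 2 lay close to Ctrl replicate 1, and replicate 2 was the lower one in each group. The means were 1635 ± 243 and 2188 ± 367 CPM (SD, n = 2), a 1.34-fold difference and a log2 fold change of 0.42 (SE 0.16, 95% interval 0.060 to 0.78, edgeR adjusted p = 0.544). It was 0.28 without Ctrl replicate 2, 0.24 without TUDCA replicate 1 and 0.59 without Ctrl replicate 1.

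HXK2 (YGL253W, chromosome VII, 23935 to 25395) is known as the main hexokinase gene on glucose. In every library here, its level per length was below those of HXK1 and GLK1. It had 1019 and 918 CPM in Ctrl and 1242 and 1204 CPM in TUDCA. The groups did not overlap, and the gap between them was wider than that within either. The means were 969 ± 71.8 and 1223 ± 27.1 CPM (SD, n = 2), a log2 fold change of 0.34 (SE 0.11, 95% interval 0.091 to 0.58, edgeR adjusted p = 0.544). DESeq2's adjusted p was 0.0566, and the log2 fold change was 0.26 without Ctrl replicate 2.

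GLK1 (YCL040W, chromosome III, 50838 to 52340) encodes glucokinase. It was at 2041 and 1740 CPM in Ctrl and at 2212 and 1915 CPM in TUDCA. The groups overlapped, with TUDCA replicate 2 between the 2 Ctrl values, and the log2 fold change of 0.13 (95% interval -0.17 to 0.43, edgeR adjusted p = 0.681) was 0.018 without Ctrl replicate 2.

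Ratios among the kinase genes moved differently. HXK1 counts were 1.77 and 1.59 times those of HXK2 in Ctrl and 1.97 and 1.602 times in TUDCA, so the groups overlapped, with both replicate 1 libraries above both replicate 2 libraries. The difference was 1.06-fold (exact permutation p = 0.667) and turned to -0.069 on the log2 scale without TUDCA replicate 1, from 0.080 with all libraries and 0.0032 without Ctrl replicate 2. GLK1 counts were 2.002 and 1.896 times those of HXK2 in Ctrl and 1.78 and 1.59 times in TUDCA, lower in both TUDCA libraries by -0.21 on the log2 scale (exact permutation p = 0.33, the smallest possible) and by -0.13 without TUDCA replicate 2. The ratio of HXK1 to GLK1, added after the levels had been seen, was 0.886 and 0.841 in Ctrl and 1.11 and 1.01 in TUDCA, again with groups apart.

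**Figure D2:**
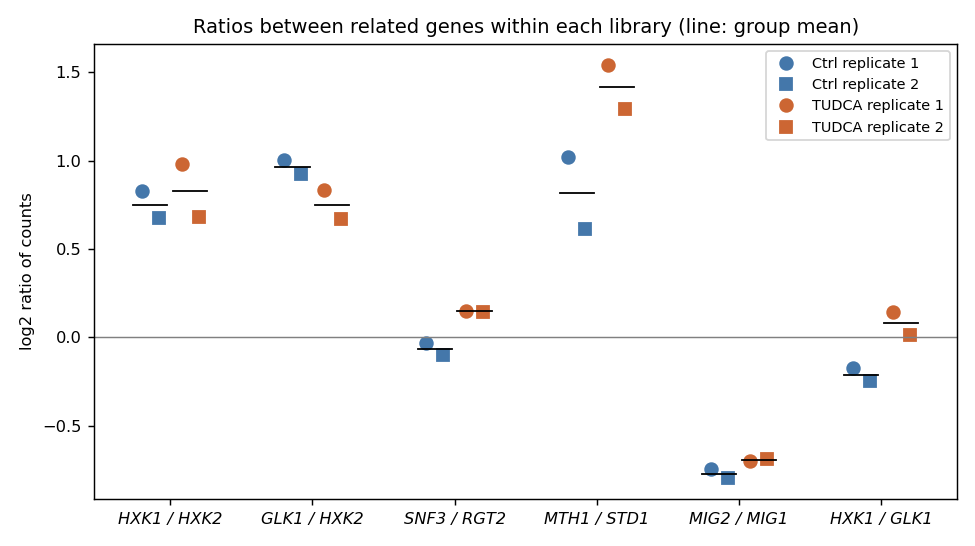
Log2 ratio of raw counts between related genes (y axis) in each library, with circles for replicate 1, squares for replicate 2 and lines for group means. MTH1 to STD1 lies at 0.62 and 1.02 in Ctrl and at 1.29 and 1.54 in TUDCA, and HXK1 to HXK2 is the ratio whose groups are not apart.

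The stretch upstream of HXK1 is shown because it held 5 stress elements, the most among the 10 genes, where 2.44% of all genes held 3 or more. It also held 2 Mig1 matches and 1 Rgt1 match. GLK1 held 3 stress elements and 1 Mig1 match, while HXK2 held 1 Rgt1 match, 1 Mig1 match and no stress element. The HXK1 stretch is chrVI:255345-255644 on the minus strand, with matches to all 3 motifs in capitals.
HXK1: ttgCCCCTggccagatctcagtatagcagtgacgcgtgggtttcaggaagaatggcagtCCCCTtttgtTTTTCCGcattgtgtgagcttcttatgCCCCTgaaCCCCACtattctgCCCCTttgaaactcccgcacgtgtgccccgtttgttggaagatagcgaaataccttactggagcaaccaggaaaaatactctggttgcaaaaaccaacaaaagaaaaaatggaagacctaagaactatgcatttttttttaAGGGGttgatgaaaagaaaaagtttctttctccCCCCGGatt

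Reads shared between related genes could not be assessed from the counts. Coding sequences of HXK1 and HXK2 were identical at 77.9% of aligned bases, with a longest identical run of 23 bases. The values were 68.2% and 21 bases for SNF3 and RGT2, 68.3% and 17 bases for MTH1 and STD1, and 64.9% and 22 bases for MIG1 and MIG2. How reads matching both copies were treated is not given in the sources used here. An overlapping feature on the same strand covered 9.81% of HXK1 (YFR052C-A) and 7.05% of GLK1 (YCL042W), and no feature overlapped the other 8 genes. Counts were 0 throughout for 112 of 113 features that an opposite-strand feature covers wholly, and for 51 of 5726 that nothing covers. Reads in overlaps thus appear not to have been assigned, and the levels of HXK1 and GLK1 may be low by about those shares.

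Levels between genes were compared per length, in RPKM (CPM per kilobase). The kinase genes stood far above the rest. GLK1 ranged from 1158 to 1472 RPKM over the 4 libraries, HXK1 from 1003 to 1679 and HXK2 from 628 to 850. MTH1 followed at 97.9 to 186 RPKM, then MIG1 at 79.7 to 88.8, MIG2 at 60.6 to 72.1 and STD1 at 61.8 to 63.0. RGT1 was at 31.7 to 38.6 RPKM, RGT2 at 23.6 to 28.2 and SNF3 at 19.0 to 27.0. Ranges overlapped between GLK1 and HXK1, between MIG2 and STD1 and between RGT2 and SNF3, and no other neighbours in this order overlapped.

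Within a library, the order of levels per length changed at 2 places. GLK1 was above HXK1 in both Ctrl libraries and below it in both TUDCA libraries, also when the bases under another feature were left out of the lengths (HXK1 to GLK1 0.941 and 0.893 in Ctrl, 1.18 and 1.07 in TUDCA). STD1 was above MIG2 in Ctrl replicate 2 and below it in the other 3 libraries.

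**Figure D3:**
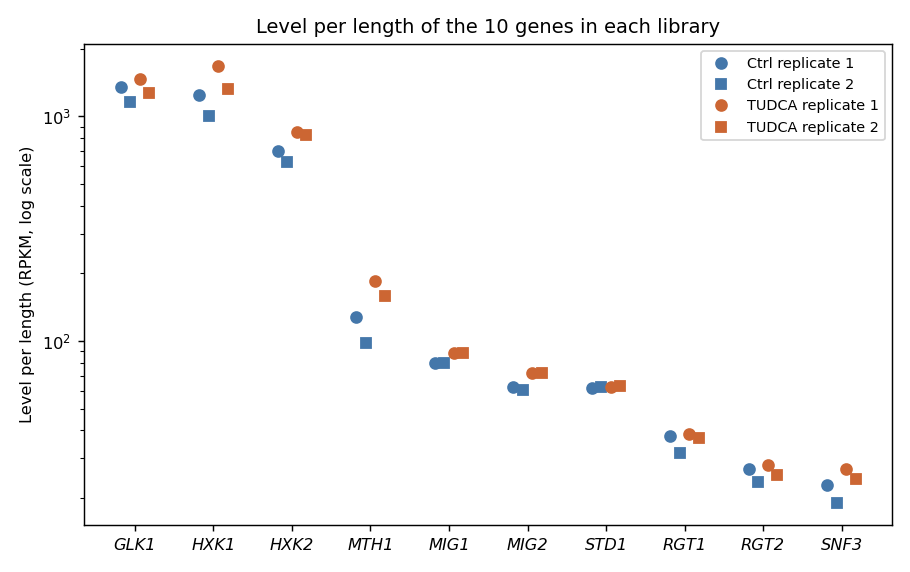
Level per length (y axis, RPKM, log scale) of the 10 genes in each library, ordered by their mean. The 3 kinase genes lie between 628 and 1679 RPKM, and all others at or below 186 RPKM.

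Replicates of a group also differed in these genes. The log2 level in Ctrl replicate 2 was lower than in Ctrl replicate 1 by a median of -0.21 over the 10 genes, from -0.39 for MTH1 and -0.30 for HXK1 to 0.013 for STD1. TUDCA replicate 2 was likewise below TUDCA replicate 1 for HXK1 (-0.34), MTH1 (-0.23) and GLK1 (-0.21). Leaving out Ctrl replicate 1 gave 6 of the 10 called higher (MTH1, SNF3, HXK1, HXK2, MIG2 and RGT1) by edgeR, in a setting that called 17.6% of all genes higher. Leaving out Ctrl replicate 2 gave 0, with 4 of the 10 higher at an unadjusted p under 0.05, against 4.22% of all genes. Ctrl replicate 2 also had the larger ribosomal protein share, and the part of that share in these values was not tested. In TUDCA replicates 1 and 2 the share was 9.76% and 10.3%.

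**Figure D4:**
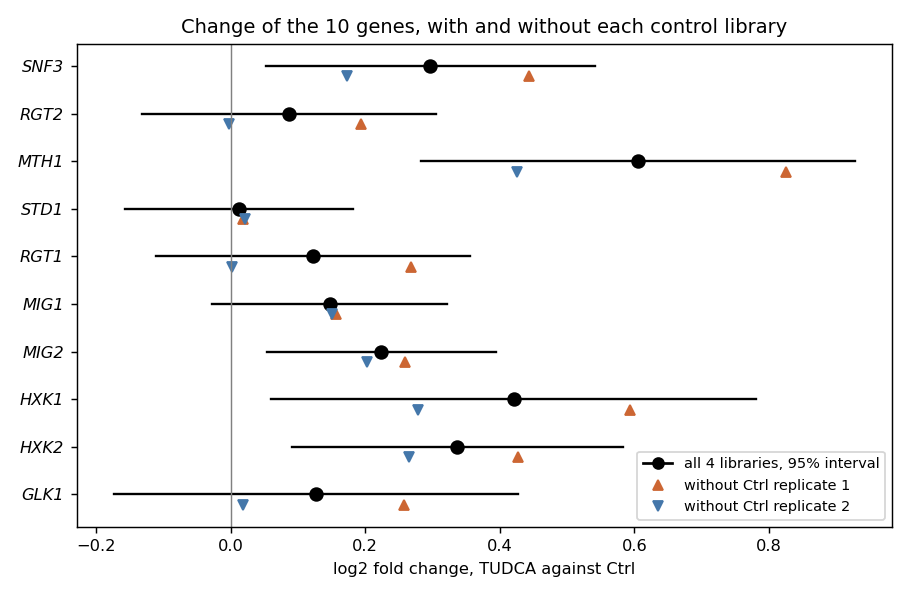
Log2 fold change of each gene, TUDCA against Ctrl (x axis), with its 95% interval over all 4 libraries (black), and the value without Ctrl replicate 1 (upward triangle) or without Ctrl replicate 2 (downward triangle). MTH1 lies at 0.43 without Ctrl replicate 2 and at 0.83 without Ctrl replicate 1, whereas STD1, MIG1 and MIG2 move by little.

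Other genes of the same pathways were followed in 6 lists, also chosen with earlier results of these data known. In each list 0 members were called by edgeR, or by limma with voom or on the deposited values. DESeq2 called 2 hexose transporters and 0 members of the other 5 lists. Beside the counts below, 4.56% of all genes had an unadjusted p under 0.05 with a lower level in TUDCA, and in 23.9% the TUDCA libraries were both under the 2 Ctrl libraries.

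Partners of the Snf3/Rgt2-Rgt1 pathway numbered 10, with a median log2 fold change of 0.11 (0.053 without Ctrl replicate 2). Of these, 1 had an unadjusted p under 0.05, TUP1, which encodes part of the corepressor that Rgt1 and Mig1 recruit. It was at 236 and 217 CPM in Ctrl and 256 and 282 CPM in TUDCA (0.25 on the log2 scale, edgeR adjusted p = 0.544). CYC8, for the other part of that corepressor, had 0.17. HRT1 (-0.13, and -0.060 without Ctrl replicate 2) and SKP1 (-0.053), for subunits of the ubiquitin ligase that acts on Mth1 and Std1, were covered in part by features on the opposite strand. Genes for other subunits of that ligase went the other way, GRR1 at 0.16 and CDC53 at 0.13 (0.063 and 0.080 without Ctrl replicate 2).

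Of 13 genes for the Snf1 kinase and its regulators, 2 were higher and 1 lower at an unadjusted p under 0.05, and the median was 0.11. SNF1 itself was at 130 and 123 CPM in Ctrl and 144 and 146 CPM in TUDCA (0.20 on the log2 scale, edgeR adjusted p = 0.544). REG1, for the phosphatase subunit that turns Snf1 off, had 0.23 (0.13 without Ctrl replicate 2). NRG2, for a repressor that Snf1 controls, was lower at -0.20 (edgeR adjusted p = 0.544 for REG1 and for NRG2). SNF4, for the activating subunit, had -0.0090, which turned to 0.096 without Ctrl replicate 2. The 17 genes of glucose signalling through cAMP and protein kinase A had 0 at an unadjusted p under 0.05 and a median of 0.031, which was -0.013 under upper-quartile scaling and 0.0059 without Ctrl replicate 2. The exchange factor gene CDC25 had 0.21, while RAS1 had -0.16 and RGS2 -0.12. Without Ctrl replicate 2 these were 0.065, -0.063 and -0.060.

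Among 17 hexose transporter genes, 4 had an unadjusted p under 0.05, all higher in TUDCA, and the median was 0.090 (-0.038 without Ctrl replicate 2). HXT3, a low-affinity transporter gene, was at 459 and 454 CPM in Ctrl and at 620 and 733 CPM in TUDCA (0.57 on the log2 scale, edgeR adjusted p = 0.235, DESeq2 adjusted p = 0.000136). HXT2, for a high-affinity transporter, was at 33.8 and 35.3 CPM in Ctrl and at 47.5 and 45.4 CPM in TUDCA (0.43, edgeR adjusted p = 0.212, DESeq2 adjusted p = 0.0089). HXT14 had -0.37 at only 0.30 to 0.42 CPM, with 23.2% of it covered by a feature on the opposite strand and no adjusted p from DESeq2. HXT9 had -0.19 at 3.11 to 3.80 CPM. Without Ctrl replicate 2 the values of HXT14 and HXT9 were -0.22 and -0.28.

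Of 17 genes that glucose represses, 4 were higher and 1 lower at an unadjusted p under 0.05, with a median of 0.16 (0.098 without Ctrl replicate 2). CAT8, an activator gene of gluconeogenesis, was at 55.2 and 47.8 CPM in Ctrl and 70.2 and 61.0 CPM in TUDCA (0.35 on the log2 scale, edgeR adjusted p = 0.544). ADR1, another activator gene for use of nonfermentable carbon, had 0.33 (0.20 without Ctrl replicate 2). The galactose gene GAL7, at 10.7 to 15.8 CPM, had -0.38 (edgeR adjusted p = 0.544 for each), and SIP4 had -0.065 (-0.016 without Ctrl replicate 2). Finally, 12 genes for glucose 6-phosphate use and later steps, or for relatives of the hexose kinases, had 0 at an unadjusted p under 0.05. Their median was 0.042, and it was -0.0022 without Ctrl replicate 2. The pentose phosphate gene ZWF1 had 0.15 and the trehalose gene TPS2 0.22, while the glycolytic genes FBA1 and PGI1 had -0.21 and -0.10. Other glycolytic genes of the list, PFK1 and PFK2, had 0.11 and 0.041, which turned to -0.034 and -0.024 without Ctrl replicate 2. Without Ctrl replicate 2, ZWF1 was at 0.090 and TPS2 at 0.041.

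**Figure D5:**
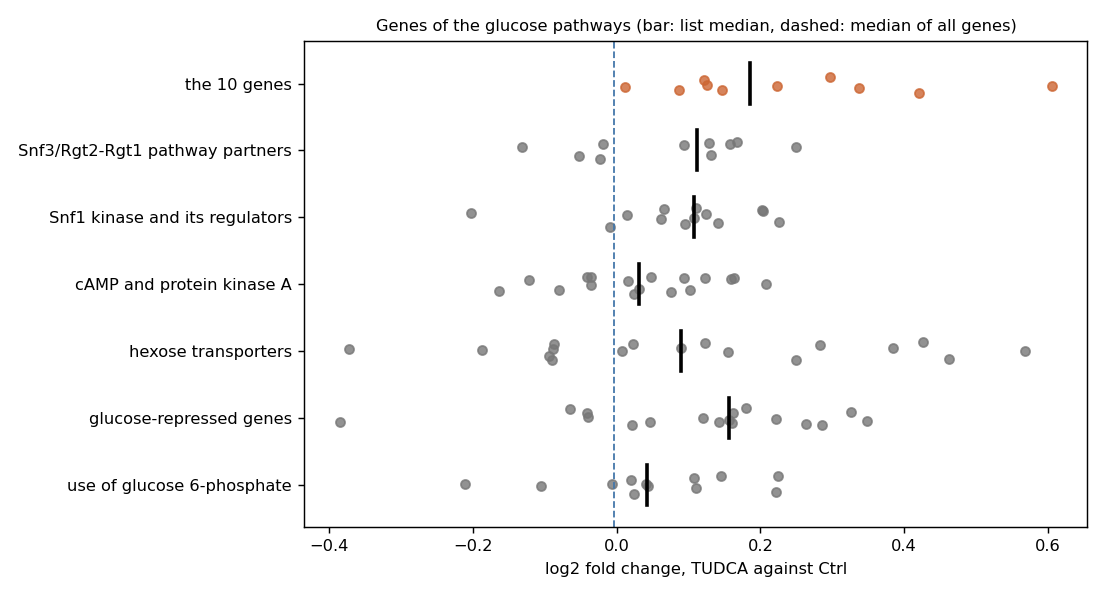
Log2 fold change, TUDCA against Ctrl (x axis), of the 10 genes (orange) and of the 6 pathway lists (grey), 1 point a gene, with a bar at each list's median and a dashed line at the median of all genes. Medians lie between 0.031 and 0.19, and the most positive values are those of MTH1 at 0.61 and HXT3 at 0.57.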

How the data were processed

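RNA from 4 yeast libraries was measured, 2 per group, grouped by the sample labels. The deposited raw counts are reads per feature. Per the submitters' processing notes, STAR 2.5.4b, featureCounts 1.6.0, DESeq2 1.26.0 and build R64 were used; the multimapping rule and strand setting are not given in the sources used here. In the deposited signal values, each count was divided by the size factor of its library, as their constant ratio shows. Positions of the 10 genes equalled those in the RefSeq R64 annotation.

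From the counts, edgeR 4.0.16 in R 4.3.3 kept 6420 genes (filterByExpr, minimum count 10), scaled libraries by TMM and tested groups with its quasi-likelihood test, adjusting p over all genes kept after Benjamini and Hochberg. The method was tested on simulated data. Alternatives were other scalings, no filter, DESeq2 1.42.0, limma 3.58.1 (voom, and log2 of deposited values with pseudocount 1), a replicate block and leaving out each library. The members and lists were chosen with earlier results of these data known. Named list genes are up to 2 per direction by smallest p, and GRR1, CDC53, PFK1 and PFK2 were added beside relatives that went the other way. Motif searches and the HXK1 to GLK1 ratio were added after the data were seen. Strain checks use library totals without TMM.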

Additional observations from a re-analysis of the deposited data

How the results depend on the processing

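Precision rests on 2 libraries per group. Leaving out a library leaves its group without a spread of its own, so calls made that way rest on the other group's spread. Of 324 values listed under an alternative, 275 kept their direction and their side of the threshold or stayed within the spread. These 275 include the ratios between genes taken per kilobase and on the deposited values. Apart from the pseudocount, those ratios could not change the difference between groups, because gene lengths and size factors cancel. Their agreement is therefore no test. The other values follow, and the cause was not tested. Over all genes, 2 were called higher and 4 lower; DESeq2 called 30 and 29, and upper-quartile scaling called 1 higher. Leaving out 1 library gave 2 to 1139 higher and 5 to 871 lower. DESeq2 called MTH1 (0.61) and 2 hexose transporters. STD1 turned to -0.032 under upper-quartile scaling.

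Leaving out 1 library, log2 fold changes ranged from 0.43 to 0.83 for MTH1, 0.17 to 0.44 for SNF3, -0.0029 to 0.19 for RGT2, 0.0016 to 0.27 for RGT1, 0.20 to 0.26 for MIG2, 0.24 to 0.59 for HXK1 and 0.26 to 0.43 for HXK2. The log2 difference of the HXK1 to HXK2 ratio ranged from -0.069 to 0.23, of GLK1 to HXK2 from -0.29 to -0.13 and of MTH1 to STD1 from 0.40 to 0.80. List medians ranged from 0.053 to 0.17 for Snf3/Rgt2-Rgt1 partners, 0.091 to 0.12 for Snf1 genes, 0.0059 to 0.082 for cAMP genes, -0.038 to 0.22 for hexose transporters and 0.098 to 0.24 for glucose-repressed genes. Called members ranged from 0 to 3, 0 to 3, 0 to 5, 0 to 7 and 0 to 8 in these lists, and from 0 to 3 for glucose 6-phosphate genes. Each highest count came without Ctrl replicate 1, where 31.0% of 6479 genes were called in either direction. Under upper-quartile scaling the Snf1 median was 0.065 and the cAMP median -0.013; by library size only they were 0.15 and 0.075.

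Samples of different groups share replicate numbers, but no label says that a number marks a shared culture or day; deviations from the group means correlated at 0.183 over 6420 genes between samples of the same number. A replicate block takes samples of the same number as paired, which no label states. With it, 191 genes were called higher and 162 lower, 5.5% of the 6420 genes tested. Among them were MTH1 (0.61, edgeR adjusted p = 1.0e-07), HXK1 (0.42), HXK2 (0.34), SNF3 (0.30), 4 hexose transporters and 2 glucose-repressed genes. Of the 10 genes, 4 were thus called higher, beside 191 of all 6420. These calls rest on fewer than the 2 residual degrees of freedom of the main fit, since the block takes up part of them.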
